A study of Mus musculus with 26 samples.

Results

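Translational efficiency after 2 h of KCl was measured in NIH3T3, a fibroblast cell line long established from mouse embryos, using 8 of the 26 libraries of the series. The 8 libraries were chosen by their labels: 2 ribosome footprint libraries and 2 RNA libraries of cells kept in KCl for 2 h (osmotic stress), and 2 of each kind from the unstressed control that the KCl and H2O2 treatments share. The labels give no KCl concentration, no genetic change and no statement that replicates were separate cultures. The p-values therefore measure the spread between replicate libraries, which may be technical. For efficiency this spread was estimated over 20 libraries of the control, KCl and H2O2 groups, which include these 8. Footprints are the stretches of mRNA that a ribosome protects from nuclease, and the RNA libraries were made from polyA-selected RNA. The translational efficiency of a gene is its footprints divided by its RNA, and its change was tested as the footprint change beyond the RNA change (an interaction term). Because footprint and RNA libraries were each scaled to their own totals, an efficiency is relative to the other genes of the same libraries, and a change in total protein synthesis cannot be seen in it.

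As background, hypertonic medium draws water out of cells, which take up salts and then organic osmolytes through transporters to restore their volume, while protein synthesis is slowed, mostly at initiation. Footprint density on an mRNA depends on how often ribosomes start on it and how fast they travel. RNA can also be held in the nucleus or in granules, where polyA selection still captures it but ribosomes do not reach it. A gene can therefore change its RNA without changing its footprints, and the reverse.

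The control footprint libraries held 3925402 and 3603755 expected counts and those of KCl 3061451 and 3051649. The RNA libraries were deeper, with 45244430 and 35775040 in the control and 25207561 and 26939393 in KCl. Replicates correlated across genes at Pearson's r = 0.966 for each footprint pair and at 0.994 (KCl) and 0.996 (control) for RNA. The 10 fibroblast markers checked (collagens, Fn1, Vim, Thy1, Pdgfrb and others) were all detected, and summed to between 20500 and 26800 normalised counts per 1000000 (CPM) in the 4 footprint libraries and to between 17000 and 19800 CPM in the RNA libraries. The markers of epithelium, endothelium and immune cells summed to at most 18.8 CPM in any of the 8 libraries, with Ptprc and Cd3e at 0 throughout. Those of muscle and neurons reached 58.1 CPM, with Myod1 and Snap25 at 0.

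Efficiency changed at 2 h of KCl in 1349 of the 10459 genes tested (12.9%), at an adjusted p under 0.05 by edgeR's quasi-likelihood test with Benjamini-Hochberg adjustment. It was lower in 953 genes (9.11%) and higher in 396 genes (3.79%), and the median change over all genes tested was -0.01 on the log2 scale. A change of 2-fold or more was found in 591 of the lower and 166 of the higher genes. In each of the 1349 genes, the 4 ratios of footprint to RNA CPM that the 2 replicates of each kind allow did not overlap between KCl and control, which was also true of 41.8% of all genes tested. A second tool, limma voom with separate weights for the 2 kinds of library, called 588 genes lower and 142 higher. Both tools called 711 genes (6.80%), 574 lower (5.49%) and 137 higher (1.31%). With only the 8 libraries compared in the fit, edgeR called 957 of 9674 genes, 720 lower and 237 higher. The edgeR fit gave each gene a single spread for footprint and RNA libraries together, although RNA replicates agreed more closely. Its SEs and adjusted p-values for efficiency can therefore be too small. In some named genes, such as Gfod1, the SE for efficiency was below that for footprints alone, and in others, such as Mapk6, above. The count of calls was moved by more than 1.5 times by leaving out the second KCl footprint library (747 genes), the second KCl RNA library (787) or the first RNA control (817). Lower genes outnumbered higher genes in each of these 3 fits.

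RNA was the side of the ratio called more often, in the lower and in the higher genes. The RNA libraries were deeper, and in every named gene the RNA change had the smaller SE (for Osr1, 0.08 against 0.32 for footprints). A footprint change of the same size was therefore less likely to be called, and these counts do not compare how far each side moved. RNA was called changed far more often than footprints, in 7263 of 13201 genes (55.0%; 27.7% higher and 27.4% lower) against 734 of 10518 genes (6.98%; 1.81% higher and 5.17% lower). At a log2 change of 1 or more the counts were 1678 for RNA and 586 for footprints. The footprint count was 239 to 430 genes when any one of the 4 footprint libraries was left out: 277 and 430 without the first and second control, and 252 and 239 without the first and second of KCl. Of the 953 genes with lower efficiency, 604 (63.4%) had higher RNA and 346 (36.3%) had lower footprints. Of the 396 genes with higher efficiency, 323 (81.6%) had lower RNA and 31 (7.83%) had higher footprints. The largest class was 494 genes whose RNA rose and whose efficiency fell, with no call in footprints. The RNA change enters the efficiency with a minus sign, so the direction of these shares is in part fixed by the definition. A further 105 genes fell in RNA, in footprints and in efficiency at once.

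**Figure D1:**
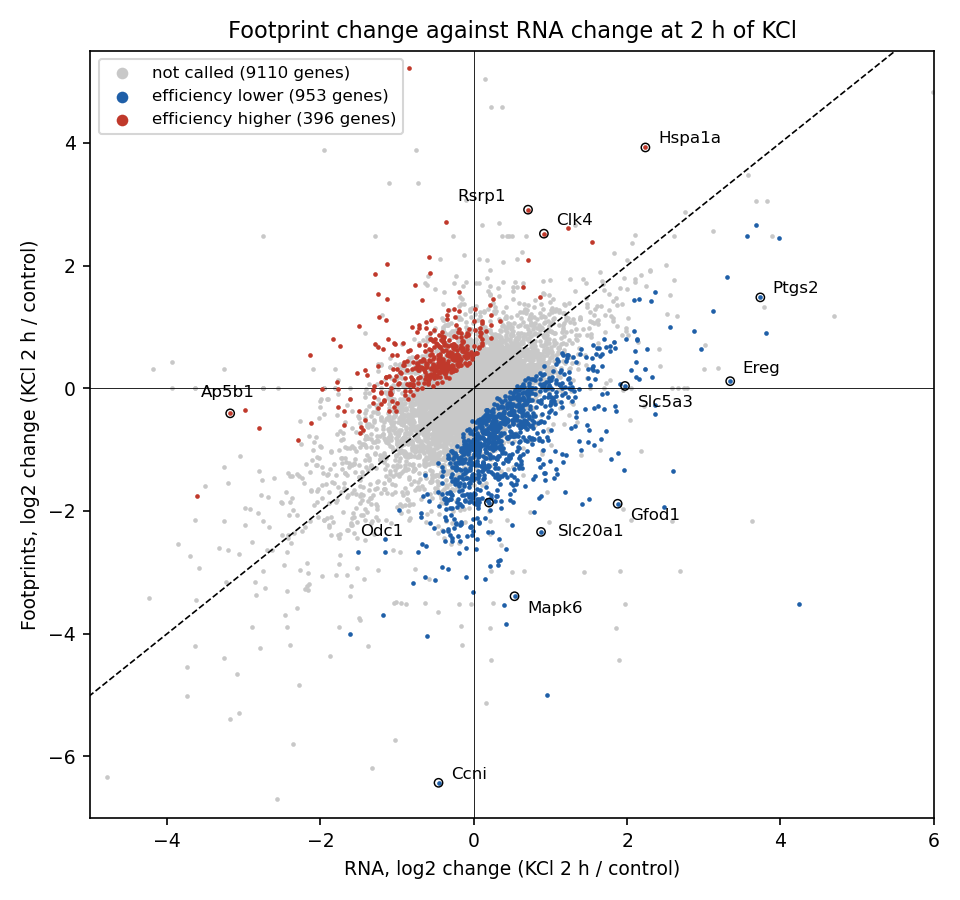
Change in footprints (y axis) against change in RNA (x axis) at 2 h of KCl, both as log2 of KCl over control, with 1 point a gene. The dashed line marks equal changes, blue points are the 953 genes with lower efficiency and red points the 396 with higher efficiency, and 7 of the genes tested lie outside the axes. Blue points spread to the right of and below the line, from Ereg and Ptgs2 at high RNA to Ccni at the bottom, while Rsrp1, Clk4 and Hspa1a rose on both axes.

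The sequences at the starts of some of the most changed transcripts are shown first, because the share of genes with lower efficiency differed with the base composition there, as described further on. They are the first 30 transcribed bases, from RefSeq (GRCm38.p6), of the 5 most lowered and the 5 most raised named genes that have a single annotated start, with G and C in capitals. The 5 lowered genes were Ccni (chr5:93206466-93206495, minus strand), Adgrl1 (chr8:83900098-83900127, plus), Areg (chr5:91139599-91139628, plus), Usp31 (chr7:121707413-121707442, minus) and Lif (chr11:4257568-4257597, plus).
Ccni: aGtCCGCGaGGGCGGGGCtaGGCGGCCGGC
Adgrl1: tCCCGGaGCCGGCGGGCCCGGCaGCGCCGa
Areg: GatCCCGCttCCttCGCtCCCttCtGaCCC
Usp31: GGCCGCGCGaCGCaCGCGCGCCCCtCGGtC
Lif: aGGGtGaGGaGCCaaCGCCaGaGGaGCCtC

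The 5 raised genes were Ap5b1 (chr19:5568024-5568053, plus strand), Sirt4 (chr5:115484268-115484297, minus), Rsrp1 (chr4:134923625-134923654, plus), Klf2 (chr8:72319062-72319091, plus) and Ankle1 (chr8:71406012-71406041, plus).
Ap5b1: GCCGCCaGCCtGCCaGCCCGGaaGGaGCCG
Sirt4: GaGCattCttaCtaGGGattCCatCtGtCt
Rsrp1: aGtCCCaGtCtGGaCtttGGCaGtGGaGGt
Klf2: aCaCaCaGtCCCtGCCatGGCGCtCaGCGa
Ankle1: aGaGGGCGGtGaCtCCtatGGGaCatGGCC
Of the 30 bases, 25 were G or C in Ccni and 26 each in Adgrl1 and Usp31, against 13 in Sirt4 and 17 in Rsrp1. Ap5b1, with 24, was as G+C-rich as the first group although its efficiency rose, and Areg and Lif had 19 and 20.

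Genes were named where both tools called them, where the control footprint libraries held 20 or more counts together, and where the footprint to RNA ratios did not overlap, which left 128 higher and 570 lower genes. The 15 with the largest change in each direction are described. A further 13 genes called by both tools had under 20 control footprint counts, the closest being Esrp2 with 18 counts (log2 change 2.28) and Abtb1 with 17 (2.61), while Ptpn22 and Chrm4 stood just inside with 20 counts each (-3.32 and -2.31).

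The 15 largest falls in efficiency included genes for kinases, a phosphate importer, secreted growth signals and an enzyme of the matrix. Mapk6, which encodes the atypical MAP kinase ERK3, had 139 and 151 footprint CPM in the control libraries and 12.8 and 14.95 in KCl, while its RNA went from 254 and 271 CPM to 364 and 394. Both KCl footprint libraries lay far below both controls, and RNA moved the other way. Its efficiency fell by 3.92 on the log2 scale (SE 0.36, edgeR adjusted p = 2.9e-06). Slc20a1, a sodium-dependent phosphate importer, had 466 and 272 footprint CPM in the control and 72.5 and 73.0 in KCl, against RNA of 256 and 235 CPM that became 433 and 469. The control libraries differed from each other and each was still far above both KCl libraries, and the efficiency fell by 3.22 (SE 0.34, edgeR adjusted p = 1.1e-05).

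Secreted ligands among the 15 were Ereg, Areg and Lif. Ereg encodes epiregulin and Areg amphiregulin, both ligands of the EGF receptor. Ereg RNA rose from 32.4 and 33.6 CPM to 306 and 364, while its footprints were 34.0 and 34.9 CPM in the control and 31.2 and 43.5 in KCl. The footprint libraries overlapped between the groups although the RNA libraries were far apart, and efficiency fell by 3.23 (SE 0.35, edgeR adjusted p = 1.8e-05). Areg footprints were 19.6 and 11.3 CPM in the control and 9.06 and 3.13 in KCl, with RNA of 1.18 and 1.21 CPM against 3.79 and 5.52, a change in efficiency of -3.31. The footprint libraries did not overlap, but their difference did not pass the test. Lif, a cytokine of the interleukin-6 family, had 48.7 and 30.2 footprint CPM in the control and 7.72 and 2.78 in KCl, and its RNA did not pass the test (log2 change 0.22). Its efficiency fell by 3.12 (SE 0.57, edgeR adjusted p = 0.0015).

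Has2 makes the matrix sugar hyaluronan at the plasma membrane. Its footprints were 154 and 64.6 CPM in the control and 36.6 and 25.7 in KCl, and its RNA rose from 18.8 and 17.9 CPM to 48.1 and 55.7, a change in efficiency of -3.32. Footprints were also set against RNA per length, as a ratio of footprint TPM to RNA TPM. In the control this ratio was 9.57 for Areg, 8.88 for Lif, 6.89 for Has2 and 4.57 for Ereg. In KCl the same ratios were 1.01, 1.10, 0.711 and 0.498. The other lowered genes had lower control ratios, from 0.065 for Ppp1r16a to 1.17 for Ptpn22. All were chosen for a fall from the control ratio, which favours high control values. The first control footprint library was the higher of the pair for Has2, Areg, Lif and Slc20a1, and each of these 4 calls held without it.

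Ccni, cyclin I, had the largest fall of the named genes. It had 25.4 and 10.2 footprint CPM in the control and 0 and 0.348 CPM in KCl, or 141 counts against 1, while its RNA went only from 162 and 174 CPM to 121 and 123. The footprint ratio of control to KCl was 107, with an exact 95% interval from 18.9 to 4250 that covers counting error only. Ppp1r16a, a regulatory subunit of protein phosphatase 1, likewise had 26 counts against 1, a ratio of 19.7 with an interval from 3.24 to 807, and its call was lost without the first KCl footprint library and with DESeq2. The fitted log2 changes were -6.21 for Ccni and -3.64 for Ppp1r16a. Without the second KCl footprint library, which held the 1 count of each gene, they were -10.89 and -8.32, so these fitted values are no bound.

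The other falls were in Mfhas1, a leucine-rich repeat protein (-3.98), Gfod1, which carries an oxidoreductase domain (-3.76), the tyrosine phosphatase Ptpn22 (-3.32), the adhesion receptor Adgrl1 (-3.31), the deubiquitinase Usp31 (-3.16), the microtubule-associated kinase Mast2 (-3.15) and Atxn1l, a partner of the repressor CIC (-3.01). Gfod1 had 21.0 and 25.8 footprint CPM in the control and 6.04 and 6.61 in KCl, although its RNA rose from 67.5 and 73.1 CPM to 249 and 267. Atxn1l differed from it in RNA, which did not pass the test, at 74.4 and 79.0 CPM against 71.0 and 72.0. Its footprints fell from 9.78 and 7.97 CPM to 0.671 and 1.39. Over the 15 lowered genes, footprints were called lower in 12 and higher in 0, and RNA was called higher in 10 and lower in 2. Of the 15, 13 were called under each of 16 alternative settings of the analysis. Besides Ppp1r16a, Ptpn22 lost its call, without the second control footprint library.

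The largest rises in efficiency were smaller and rested on fewer footprints. Rsrp1, an arginine and serine rich protein, was the clearest: footprints went from 18.6 and 29.1 CPM in the control to 152 and 205 in KCl, and RNA from 167 and 168 CPM to 267 and 280. Both kinds of library rose, footprints more so, and efficiency rose by 2.21 (SE 0.27, edgeR adjusted p = 4.7e-05). Osr1, a zinc finger transcription factor, had 14.7 and 16.5 footprint CPM in the control and 19.1 and 29.2 in KCl, while its RNA fell from 65.9 and 70.1 CPM to 31.9 and 27.7. Efficiency rose by 1.82 (SE 0.28, edgeR adjusted p = 0.00033) with the 2 footprint groups close to each other.

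Most of the 15 followed Osr1. RNA was called lower in 13 of them and higher only in Rsrp1, and footprints were called higher in 2, Rsrp1 and Cep57l1, a centrosomal protein. Ap5b1, a subunit of the AP-5 adaptor of endosomes, had 4.16 and 4.94 footprint CPM in the control and 4.36 and 2.43 in KCl, and its RNA fell from 6.91 and 7.84 CPM to 0.864 and 0.755. Its footprint libraries overlapped and the log2 change in efficiency was 2.77 (SE 0.57, edgeR adjusted p = 0.0038), on 35 control and 20 KCl footprint counts. Sirt4, a mitochondrial sirtuin, had 1.96 and 5.77 footprint CPM in the control and 6.04 and 7.30 in KCl, while its RNA fell from 10.8 and 11.2 CPM to 3.33 and 2.82 (log2 change in efficiency 2.66, SE 0.45).

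Klf2, a transcription factor of the Krüppel family, had a wide spread between the control footprint libraries, at 2.93 and 10.7 CPM, and 3.02 and 5.56 CPM in KCl. Its RNA fell from 14.4 and 14.8 CPM to 2.39 and 1.79. The call (2.17, SE 0.64, edgeR adjusted p = 0.033) was lost in the fit of the 8 libraries alone and without any one of the first footprint control, either RNA control, the second KCl footprint library or the second KCl RNA library. The others were the nuclease Ankle1 (2.02), the DNA helicase Pif1 (1.91), Ccdc163 (1.81), the kinesin Kifc5b (1.77), Nynrin (1.76), the intermediate filament relative Iffo1 (1.76), Cep57l1 (1.76), the centriolar protein Ccdc61 (1.68), Rtkn2 (1.66) and Rcan2, a calcineurin regulator (1.62). Kifc5b has a near-identical copy, Kifc1, and reads shared between them could be split by the counting, so its value is uncertain. Of the 15 raised genes, 5 were called under each of the 16 alternatives: Sirt4, Rsrp1, Osr1, Kifc5b and Cep57l1. Without the second KCl footprint library 6 of the 15 were called, and Ap5b1 lost its call without the first.

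**Figure D2:**
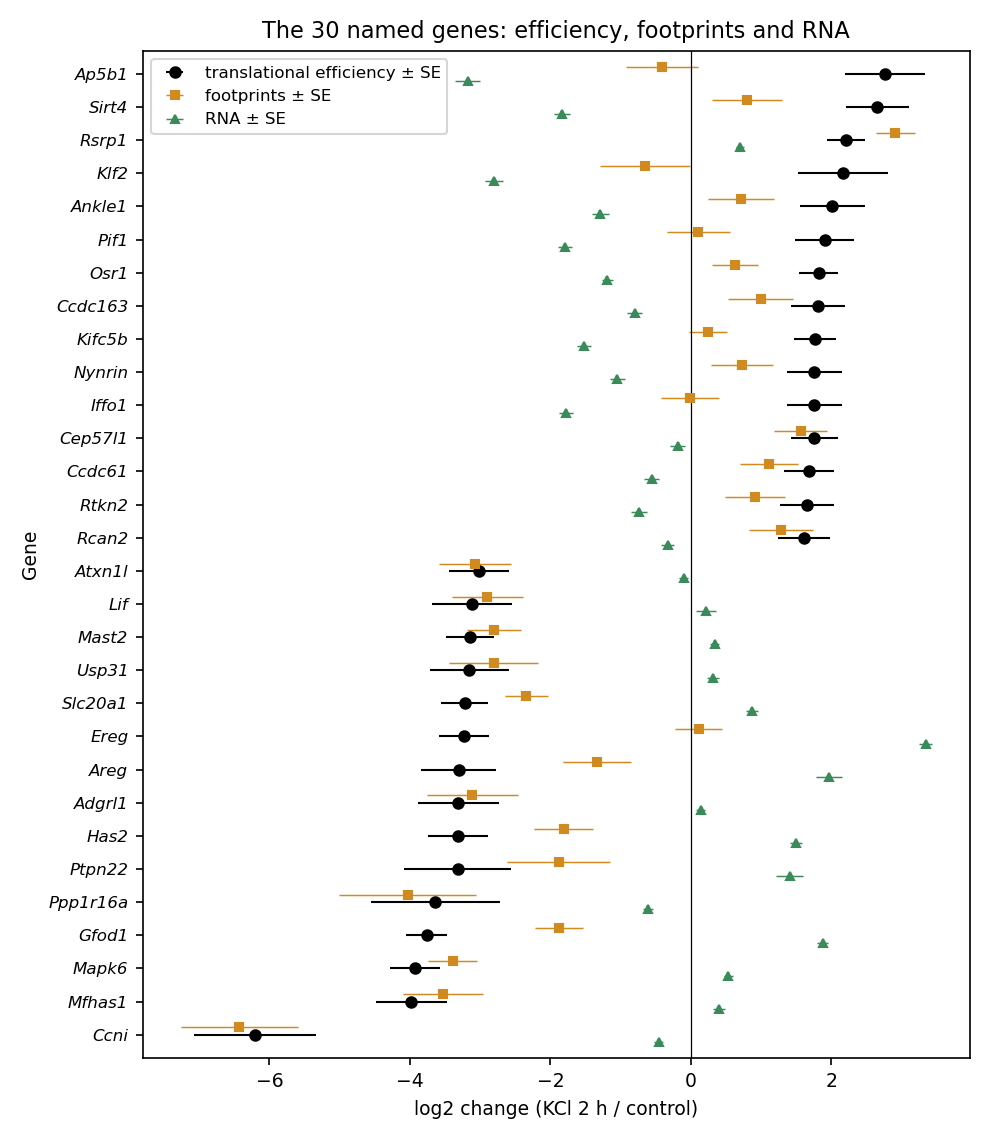
Log2 change at 2 h of KCl over control in efficiency (black circles), footprints (orange squares) and RNA (green triangles) for the 30 named genes, ordered by efficiency, with bars of 1 SE of the edgeR fits. Raised genes have RNA left of 0 except Rsrp1, and lowered genes have footprints far left of 0 except Ereg, whose RNA lies farthest right at 3.35.

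Genes whose RNA, footprints and efficiency all rose numbered 13, and this class was looked at after its values were seen. It held Rsrp1, Clk4, Ccnl1, Wsb1, Ppp1r10, Ip6k2, Ankrd10, Eomes, Snai2, Tob1, Fto, Oaz2 and Hspa1a. Clk4 is one of the CLK kinases that phosphorylate SR splicing factors, and Ccnl1 encodes cyclin L1, a partner of splicing-linked CDKs. Clk4 footprints rose from 15.2 and 15.7 CPM to 98.7 and 78.2, and its RNA from 31.4 and 31.8 CPM to 58.3 and 60.9. Footprints rose more than RNA, and efficiency rose by 1.61 (SE 0.20, edgeR adjusted p = 5.1e-05). Ccnl1 footprints went from 26.7 and 27.5 CPM to 103 and 127, with a rise in efficiency of 1.38 (SE 0.24, edgeR adjusted p = 0.0011).

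Wsb1, a substrate receptor of a ubiquitin ligase, rose as much in efficiency (1.38) on an RNA rise of 1.23. Ppp1r10, a nuclear targeting subunit of protein phosphatase 1, rose by 0.83 in efficiency and 1.55 in RNA. Hspa1a, an inducible HSP70 chaperone, went from 16.1 and 12.4 footprint CPM to 195 and 240, and its efficiency change of 1.69 was called by edgeR (adjusted p = 0.021) but not by limma voom. Its near-identical copy Hspa1b had a log2 change in efficiency of 0.12 that did not pass the test, so that reads split between the 2 copies make both values uncertain. Of the 13 genes 9 were called by both tools, and Rsrp1, Clk4, Ccnl1, Wsb1 and Eomes held under each of the 16 alternatives.

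Genes with lower efficiency in spite of higher footprints numbered 15, also listed after their values were seen: Ptgs2, Epha2, Ccn1, Edn1, Ier3, Ankrd1, Abl2, Rbm15, Atp1b1, Slco4a1, Csrnp1, Ier5, Maff, Syde2 and Rapgef2. Ptgs2 encodes cyclooxygenase-2, the inducible enzyme of prostaglandin synthesis. Its RNA rose by 3.74 on the log2 scale and its footprints by 1.48, which left an efficiency change of -2.26 (SE 0.28, edgeR adjusted p = 5.1e-05). Epha2, an ephrin receptor, rose by 3.12 in RNA and 1.25 in footprints. In these genes footprints rose, by less than RNA. Of the 15, 12 were called by both tools, and Ptgs2, Epha2, Ccn1, Ier3, Ankrd1, Abl2, Rbm15, Atp1b1 and Csrnp1 held under each alternative that gave a value.

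Immediate early genes are those that growth signals and stress induce without new protein synthesis. Their median efficiency change was the lowest of 28 gene groups in the main edgeR fit, at -0.59 over 31 of 32 members tested. Efficiency was called lower in 13 members and higher in 1 (Klf2), where all genes tested gave 9.11% and 3.79%. RNA was called higher in 25 of the 31 and footprints in 13, with median log2 changes of 1.26 and 0.66. Over all genes tested for each kind of library, RNA was called higher in 27.7% and footprints in 1.81%. The MAP kinase phosphatases, which switch off ERK signalling, were among the most lowered: Dusp5 at -2.38 (SE 0.29), Dusp4 at -2.14 (SE 0.30) and Dusp6 at -1.95 (SE 0.40). Dusp6 RNA rose from 4.34 and 5.01 CPM to 32.2 and 36.2, and its footprints were 58.2 and 52.5 CPM in the control and 136 and 75.1 in KCl. Srf, the serum response factor, fell in footprints from 42.1 and 39.8 CPM to 14.4 and 8.69 while its RNA rose from 55.8 and 61.0 to 79.5 and 81.9, a change in efficiency of -2.29 (SE 0.23, edgeR adjusted p = 1.0e-05).

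The matricellular genes Ccn2 and Ccn1 changed by -1.91 and -1.55, and Ier3, a survival factor, by -1.49. Not every immediate early gene shared this. Fos (0.40), Dusp1 (0.31), Junb (0.41) and Nr4a2 (-0.37) did not pass the test, although the RNA of Fos, Dusp1 and Nr4a2 rose by between 2.06 and 2.29 on the log2 scale and their footprints by between 1.91 and 2.5. The calls of Dusp5, Srf, Dusp4, Dusp6, Ccn2, Ccn1 and Ier3 held under each alternative that gave a value, and the group's median ranged from -0.82 to -0.55 over the alternatives.

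Among ion transporters and kinases that regulate cell volume, efficiency was called lower in 6 of the 21 tested and higher in 0, against 9.11% and 3.79% of all genes tested, with a median of -0.51. Both tools called 4 of the 6. Atp1b1, the beta subunit of the sodium-potassium pump, rose in RNA from 26.2 and 26.7 CPM to 88.3 and 99.1 and in footprints from 50.6 and 54.7 CPM to 92.3 and 85.2. Footprints thus rose less than RNA, and efficiency changed by -1.07 (SE 0.19, edgeR adjusted p = 0.0012). Wnk1, the kinase that senses chloride and crowding and activates ion uptake, changed by -0.92 (SE 0.19), with footprints of 131 and 155 CPM in the control against 115 and 120. Slc12a2, the sodium-potassium-chloride importer, changed by -0.89, Ano6, a scramblase and ion channel, by -0.64, and Lrrc8b and Lrrc8c, subunits of the volume-regulated anion channel, by -2.06 and -0.67. The calls of Slc12a2, Lrrc8b and Lrrc8c were each lost in 6 or more of the 16 alternatives and that of Ano6 without the second RNA control or the second KCl RNA library, whereas Atp1b1 and Wnk1 held in all.

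The osmotic response group gathers targets of the factor NFAT5 and related genes. RNA was called higher in 11 of its 12 members, footprints in 4, and efficiency was called lower in 2. Over all genes tested for RNA, for footprints and for efficiency these shares were 27.7%, 1.81% and 9.11%. Slc5a3, the importer of the osmolyte myo-inositol, had 142 and 143 footprint CPM in the control and 175 and 117 in KCl, while its RNA rose from 56.1 and 60.2 CPM to 193 and 264. The 2 KCl footprint libraries fell on either side of the controls, and efficiency fell by 1.93 (SE 0.25, edgeR adjusted p = 7.4e-05). Sgk1, a kinase that promotes sodium transport, changed by -0.76, a call lost in 5 fits that each left out 1 library. Footprints of other members followed their RNA more closely: Slc38a2, an importer of neutral amino acids, rose by 2.61 in RNA and 2.49 in footprints, and its efficiency change was -0.13. Akr1b3, which makes sorbitol, rose by 1.93 in RNA and 1.37 in footprints, and Nfat5 itself by 2.01 and 1.14. Neither passed the test for efficiency (-0.56, and -0.87 with edgeR adjusted p = 0.054).

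**Figure D3:**
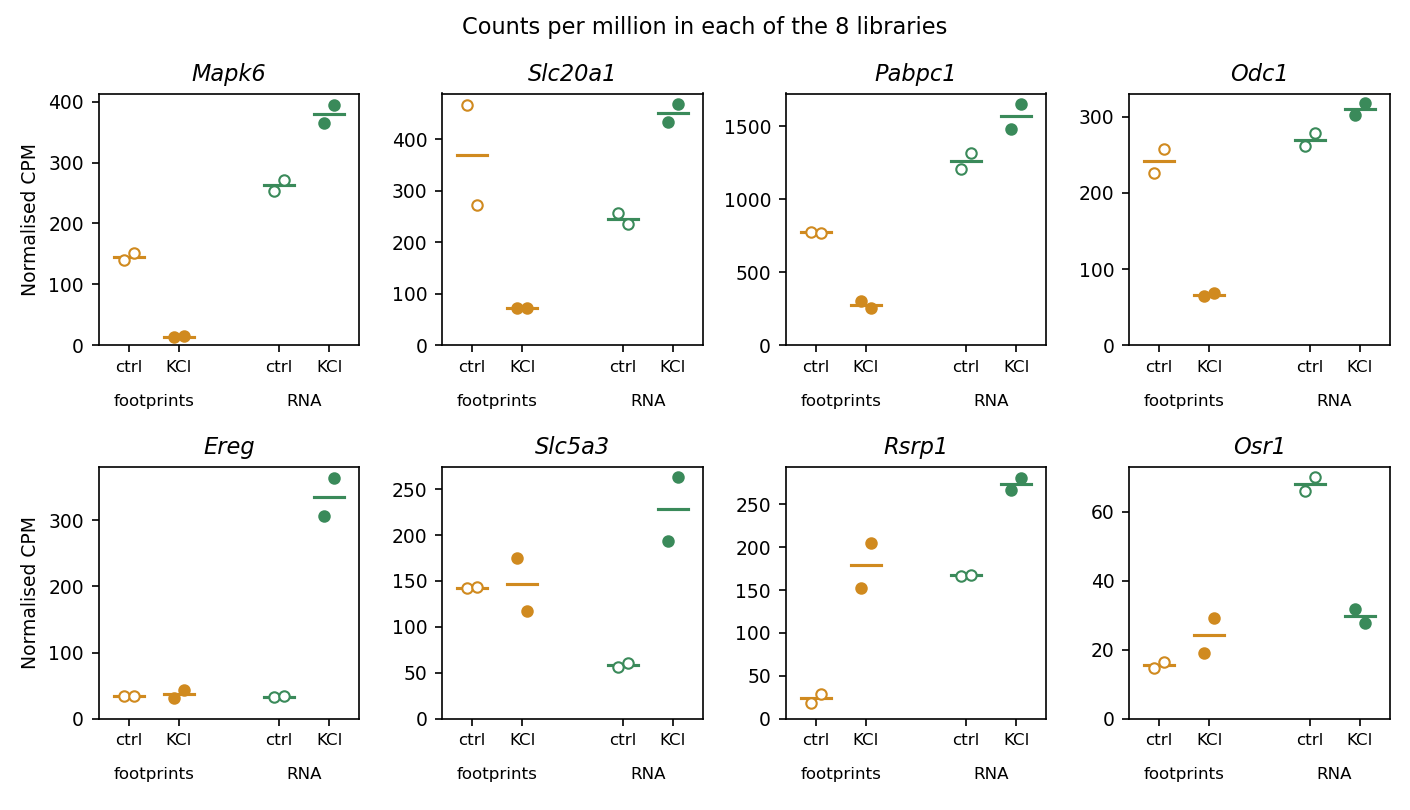
Normalised CPM in each of the 8 libraries for 8 genes, with footprints in orange and RNA in green, control as open and KCl at 2 h as filled circles, and a bar at the mean of each pair. Mapk6, Slc20a1, Pabpc1 and Odc1 lost footprints while RNA stayed level or rose, Ereg and Slc5a3 gained RNA without a clear change in footprints, Rsrp1 gained more footprints than RNA and Osr1 lost RNA.

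Among genes for the translation machinery, few were called, where 12.9% of all genes tested were called in either direction. Of the 79 tested of 80 cytosolic ribosomal protein genes, 0 were called in efficiency by edgeR, by limma voom and by DESeq2, with 1 higher at an unadjusted p under 0.05. Their changes ran from -0.78 to 0.75 with a median of -0.02. Translation factors whose mRNAs begin with a TOP sequence, a run of pyrimidines that couples them to mTOR, gave 1 call in 16. It was Pabpc1, the cytoplasmic polyA-binding protein, with 773 and 771 footprint CPM in the control and 300 and 255 in KCl and with RNA of 1205 and 1318 CPM against 1479 and 1653. Footprints fell to well under the controls in both libraries as RNA rose, and efficiency fell by 1.79 (SE 0.23, edgeR adjusted p = 8.7e-05). Eef1a1 (0.04), Eef2 (0.06) and Eif4b (-0.20), elongation and initiation factors of that list, did not pass the test.

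Of the 37 initiation factor genes tested, 1 (2.7%) was called lower, against 9.11% of all genes tested. It was the inhibitor Eif4ebp2 (-1.33), and limma voom did not call it. Across all genes, a start with C followed by 4 pyrimidines (C or T, on the transcribed strand) was found in 3.01% of genes in the RefSeq table and in 14 of the 59 ribosomal protein genes present there. The 253 tested genes with such a start had a median change of -0.02, with 31 called lower and 8 higher, where 9.11% and 3.79% of all genes tested were called. The rule reads annotated starts only, so these genes cannot stand for all mRNAs with a TOP sequence.

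Some mRNAs carry upstream open reading frames, short reading frames through which they stay translated when initiation factor eIF2 is phosphorylated. Of the 12 such genes tested, 3 were called lower and 0 higher, against 9.11% and 3.79% of all genes tested. Ifrd1, a transcriptional co-regulator, went from 127 and 113 footprint CPM to 45.0 and 44.8 while its RNA rose from 117 and 112 CPM to 158 and 162 (-1.90, SE 0.24, edgeR adjusted p = 7.0e-05). Ppp1r15b, the constitutive eIF2 phosphatase subunit, changed by -1.32 (SE 0.21), and Bmi1, a Polycomb protein, by -1.81, a call lost without the first control footprint library. Atf4, the main effector of the integrated stress response, rose by 0.79 in RNA and 0.88 in footprints, an efficiency change of 0.09 that did not pass the test. Ddit3, which encodes CHOP, gave 1.39 (edgeR adjusted p = 0.073), and Ppp1r15a -0.49 on an RNA rise of 2.51.

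Cyclins and CDK inhibitors had 3 lowered (11.1%) and 1 raised (3.7%) member among the 27 tested, near the 9.11% and 3.79% of all genes tested. The called members were Ccni, Ccny (-1.5), Ccnt1 (-0.72) and Ccnl1. Limma voom did not call Ccny, whose call was also lost without the first footprint control or the first KCl footprint library, or Ccnt1, whose call was lost in 4 such fits. Odc1, ornithine decarboxylase, the first enzyme of polyamine synthesis, had 226 and 257 footprint CPM in the control and 64.4 and 68.5 in KCl, with RNA of 261 and 279 CPM against 302 and 318. Its efficiency fell by 2.06 (SE 0.31, edgeR adjusted p = 0.00033). Odc1 was the only lower call among 10 polyamine genes, or 10%, near the 9.11% of all genes tested. Oaz2, an antizyme that marks Odc1 protein for degradation and whose own mRNA is read through a frameshift, was called higher (0.76) by edgeR and not by limma voom. Mcl1, an anti-apoptotic BCL2 relative, changed by -0.75 (SE 0.17) as its RNA rose from 172 and 176 CPM to 448 and 464. Slc7a5, which imports large neutral amino acids, fell in footprints from 322 and 357 CPM to 168 and 195 with RNA of 175 and 185 CPM against 164 and 173 (-0.81, SE 0.19, edgeR adjusted p = 0.0082). Odc1, Mcl1 and Slc7a5 held under each alternative.

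Secreted matrix proteins are the main export of fibroblasts. Of 44 tested of 46, RNA was called higher in 32 and efficiency lower in 5 and higher in 0, and the median change in efficiency was -0.39. The share called lower was 11.4%, near the 9.11% of all genes tested, and RNA was called higher in 27.7% of all genes tested for RNA. Among the lowered members, Timp1, an inhibitor of matrix metalloproteinases, changed by -1.04, with 613 and 466 footprint CPM in the control and 290 and 310 in KCl, and the collagens Col18a1, Col4a1 and Col5a1 by between -0.93 and -0.55. Timp1 lost its call without the first footprint control, the second RNA control or the first KCl RNA library, and each of these collagen calls was lost in 7 or more of the 16. The 22 genes of ER chaperones and folding gave a median of -0.34, with RNA higher in 19 and 1 call in efficiency, Atf6 (-0.92). That call was lost when only the libraries compared were fitted, and without any one of the first footprint control, either RNA control, or the second KCl footprint or RNA library.

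Groups with a median above 0 had few calls, and 3.79% of all genes tested were called higher. RNA was called lower in 27.4% of all genes tested for RNA. Mitochondrial ribosomal proteins had a median change of 0.30 over 78 genes, 67 of them above 0, with RNA called lower in 44. Efficiency was called higher in 4, or 5.13% (Mrpl55, Mrps17, Mrpl14 and Mrpl49) by edgeR and in 0 by limma voom. All 11 tubulin genes lay above 0, from 0.08 to 0.77, and RNA was called lower in 7, but 0 were called in efficiency by edgeR, limma voom or DESeq2, with 4 at an unadjusted p under 0.05. Nuclear genes of the respiratory chain gave 2 higher calls in 76 (Ndufb4 and Ndufa7), or 2.63%, and mitosis and DNA replication genes 3 in 37 (Aurka, Aurkb and Pole), or 8.11%. Of these 5 calls limma voom also made those of Ndufa7, Aurka and Pole, and each of the 5 was lost in 2 or more of the 16 alternatives.

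Proteasome subunits (36 tested, median 0.08), V-ATPase and lysosome genes (30, median 0.0022) and aminoacyl-tRNA synthetases (20, median 0.15) had 0 calls by edgeR and by limma voom. At an unadjusted p under 0.05 edgeR gave 2, 1 and 3 members, and DESeq2 called 1, 0 and 2. Only 22 of the 64 replication-dependent histone genes passed the filter on low counts, and 0 of these were called by edgeR or limma voom (3 at an unadjusted p under 0.05, 1 by DESeq2). Their mRNAs end without a polyA tail, so polyA-selected RNA is a poor denominator for them. Their median was -0.54, and -0.82 to -0.12 over the alternatives. This range overlaps that of the immediate early genes, so the order of these groups is not settled.

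**Figure D4:**
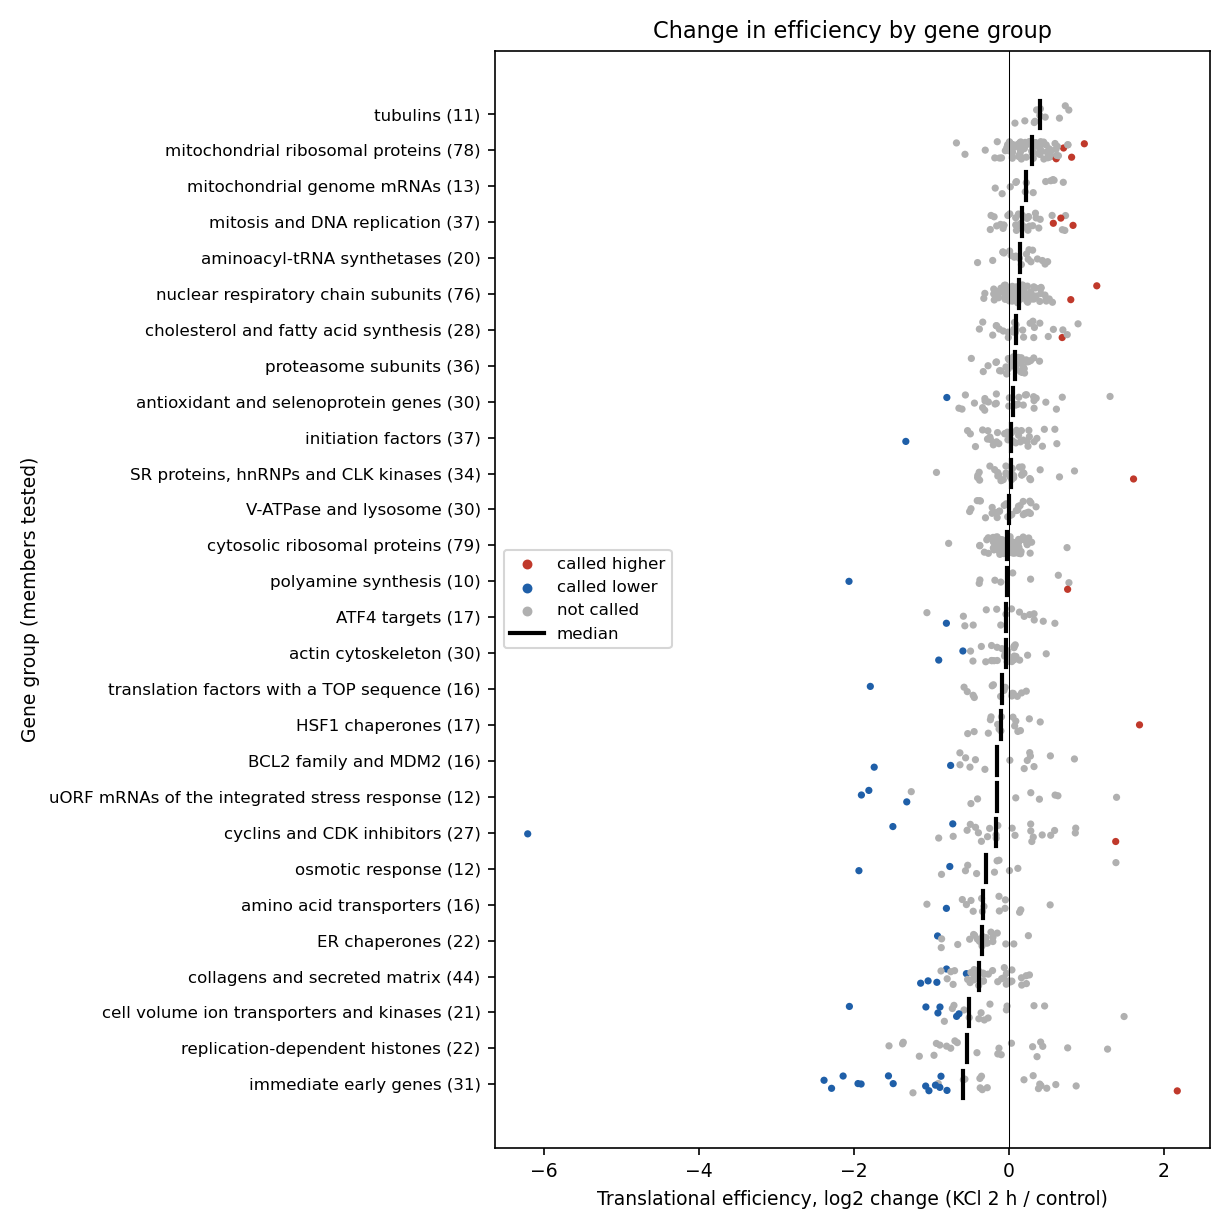
Log2 change in efficiency at 2 h of KCl over control for each tested member of 28 gene groups (points, red called higher, blue called lower, grey not called), with a black bar at each group's median and groups ordered by it. Medians run from -0.59 in immediate early genes to 0.40 in tubulins, and cytosolic ribosomal proteins lie around 0 with no call.

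Efficiency changes varied with the length of the transcript. Relative length was taken, without a genome, from the ratio of counts to TPM of a gene in the RNA libraries, which is proportional to its effective length. Genes were split into 5 equal groups by this length. In the shortest group of genes 2.20% were called lower and 3.06% higher, and the share called lower was 4.64%, 8.09% and 10.9% in the next groups and 19.8% in the longest, where 1.63% were called higher. The median change went from 0.14 in the shortest to -0.32 in the longest group. Spearman's rho across the 10447 genes with a length was -0.27. Median RNA changes went from -0.09 to 0.21 over the same groups and footprint changes from 0.06 to -0.05. Median control footprint counts were 205 and 230. The gradient was not particular to 2 h of KCl. Against the same control, median efficiency changes went from 0.105 to -0.219 at 7 h of KCl and from 0.266 to -0.226 at 2 h of H2O2. Across the alternatives the share called lower was 1.10% to 3.54% in the shortest and 11.6% to 25.7% in the longest group.

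The base composition of the transcript start showed a second gradient. RefSeq gave a start for 8429 of the genes tested, and G+C was counted over the first 50 transcribed bases, again in 5 groups. Genes with 75% G+C or more, the highest group, were called lower in 16.5% and higher in 2.10% of cases, against 6.80% and 5.4% in the lowest group (58% or less). The groups between gave 6.11%, 6.85% and 9.32% lower. Spearman's rho was -0.17 over the 8429 genes, and length and start composition were themselves weakly related (rho 0.12). In genes in the highest group of both, 123 of 409 (30.1%) were called lower and 1 higher, against 11 of 491 (2.24%) lower and 20 higher in the lowest group of both. Among long genes with G+C-poor starts 16.1% of 341 were called lower, and among short genes with G+C-rich starts 2.00% of 200. All points of these correlations come from the same libraries, so the correlations are descriptions. With the length taken from the footprint libraries instead, 3.17% were called lower in the shortest and 16% in the longest group. From the lowest to the highest G+C group, median efficiency changes went from 0.0843 to -0.202 at 2 h of KCl. Against the same control they went from -1.85e-05 to -0.0939 at 7 h of KCl and from 0.134 to -0.126 at 2 h of H2O2.

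**Figure D5:**
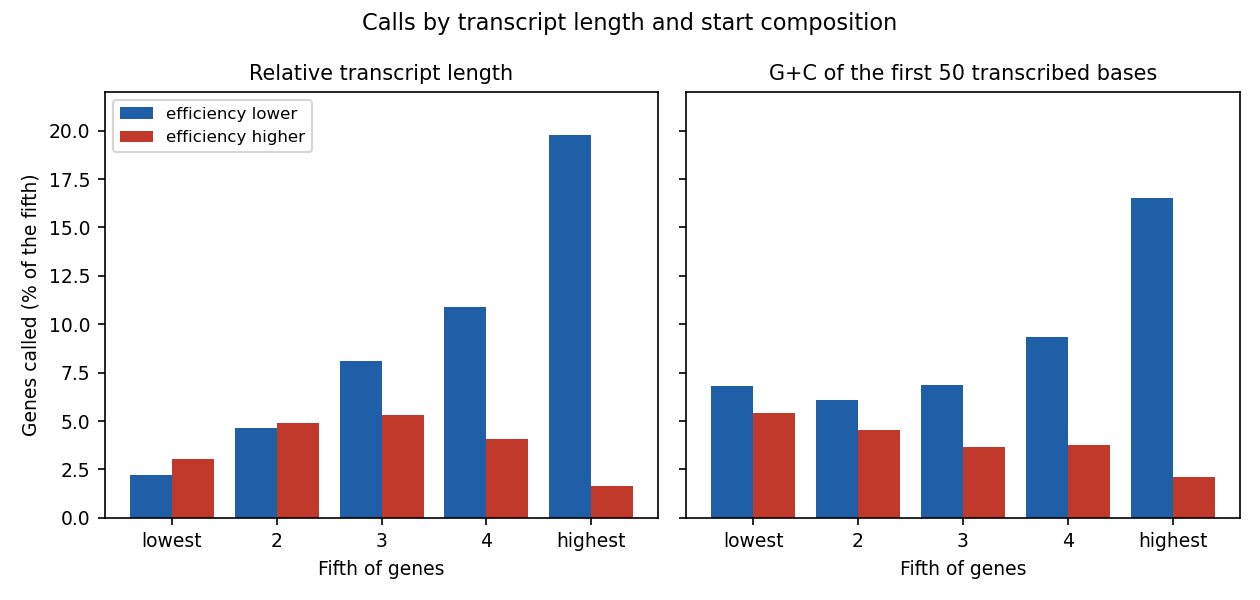
Share of genes called lower (blue) and higher (red) in efficiency at 2 h of KCl, in percent of each group, by relative transcript length (left) and by G+C of the first 50 transcribed bases (right). The blue bars climb from 2.20% to 19.8% with length and stand at 16.5% in the group with the most G+C, while the red bars stay at 5.4% or less.

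Whether the changes at 2 h were still present at 7 h was tested directly, as the difference between the 2 times, in which the shared control cancels. Efficiency differed between 2 h and 7 h in 717 of the 10459 genes (6.86%), 362 higher (3.46%) and 355 lower (3.39%) at 2 h. Leaving out 1 library moved this count to 240 and 280 (second KCl 2 h footprint and RNA library), 362 and 466 (first and second KCl 7 h footprint library) and 292 and 322 (first and second KCl 7 h RNA library). The named genes were chosen by their change at 2 h, whose libraries also enter this difference, so larger changes at 2 h are favoured among them. It was called in 10 of the 30. Mapk6 changed by -3.92 at 2 h and -1.89 at 7 h against the control that both share, and the direct difference was -2.04 (SE 0.37, edgeR adjusted p = 0.0044). Slc20a1 changed by -3.22 and -1.64 (difference -1.58), Ereg by -3.23 and -1.83 (-1.40), and Gfod1 by -3.76 and -2.54 (-1.22). Sirt4, at 2.66 and -0.03, and Ap5b1, at 2.77 and 0.52, had differences of 2.69 and 2.24 that passed the test.

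For other genes no difference was called. Lif changed by -3.12 and -3.97, Areg by -3.31 and -3.06, Has2 by -3.32 and -2.69 and Osr1 by 1.82 and 1.75, at 2 h and 7 h. Their standard errors, from 0.29 for Osr1 to 0.97 for Lif, leave room for sizeable differences. Pabpc1 changed by -1.79 at 2 h and -0.29 at 7 h, with a called difference of -1.5 (edgeR adjusted p = 0.0015). The median of the cytosolic ribosomal proteins was -0.02 at 2 h and -0.35 at 7 h. The difference was called in 2 of the 79, against 6.86% of all genes tested.

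H2O2, an oxidative stress, was given for the same 2 h and compared with the same control. The direct difference in efficiency between KCl and H2O2 at 2 h was called in 535 of the 10459 genes (5.12%), 349 lower (3.34%) and 186 higher (1.78%) in KCl. It was called in 208 and 306 genes without the second KCl footprint or RNA library, in 296 without the first KCl RNA library, in 247 and 286 without the first or second H2O2 RNA library, and in 89 when only the libraries compared were fitted. The first H2O2 footprint library was shallower than the others, at 1460751 counts against 5168537 in the second. Among the 30 named genes, chosen on the KCl libraries that enter this difference, 10 were called, and in each the KCl change was the larger. Ccni changed by -6.21 in KCl and -0.69 in H2O2, Mapk6 by -3.92 and -0.97, Atxn1l by -3.01 and -0.03, and Mfhas1 by -3.98 and -1.06. For Mapk6 the difference was -2.95 (SE 0.36, edgeR adjusted p = 0.00041), and for Atxn1l -2.99 (SE 0.44, edgeR adjusted p = 0.0013).

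The 2 stresses share their control, so the values that follow are set side by side without a reading of their likeness. Lif changed by -3.12 in KCl and -4.22 in H2O2, Areg by -3.31 and -3.61, Ereg by -3.23 and -2.42, and Has2 by -3.32 and -2.29, with no called difference. The DNA helicase Pif1 (1.91 and 2.28) and the nuclease Ankle1 (2.02 and 2.19) had these changes in KCl and in H2O2. Rsrp1 rose by 2.21 in KCl and 1.17 in H2O2, a called difference of 1.04. Pabpc1 changed by -1.79 in KCl and by -3.39 in H2O2, a called difference of 1.60 (edgeR adjusted p = 0.0015). As groups, immediate early genes had medians of -0.59 in KCl and -1.11 in H2O2, and upstream open reading frame messages -0.16 and 0.72. The difference was called in 5 of 31 and 3 of 12 members, against 5.12% of all genes tested.

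Tasor2 has its counts under 2 symbols of the same gene. After summing them its efficiency change was -0.73 (edgeR adjusted p = 0.066), which did not pass the test. With the rows as deposited it was 9.17 (edgeR adjusted p = 0.0435), a call in the other direction.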

How the data were processed

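Ribosome footprint and RNA libraries of NIH3T3 cells were compared, 2 per group. The authors deposited expected counts per gene, all whole numbers, and TPM for the same libraries; the submitters' processing notes name STAR, RSEM, Bowtie and mm10, without versions. No source used here names a strand setting. Expected counts were tested and TPM, as the authors deposited it, served only for ratios per length and relative transcript length. A further 12 columns matching no labelled sample were not used. Rows under several symbols of 1 gene (97 genes, 195 rows) were summed with RefSeq names, which matched 20384 of 20430 symbols.

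Counts were fitted in R 4.3.3 with edgeR 4.0.16 (TMM, filtered for low counts, quasi-likelihood test) over 20 libraries of the control, KCl and H2O2 groups, each kind of library normalised within itself, and p-values were adjusted over all genes tested. limma 3.58.1 (voom with separate weights) and DESeq2 1.42.0 were alternatives, with other size factors, no filter, fewer libraries, a replicate block, rows as deposited, robust dispersion and each library left out. Scripts were tested on simulated data. Replicates differed beyond sampling noise (chi-square per gene 9.4 to 13.6), so none was counted as a duplicate.

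The genes named were the 15 largest changes per direction called by edgeR and limma voom, with 20 or more control footprint counts and ratios that did not overlap. The members and gene lists were chosen with earlier results of these data known. Some results are not reported here.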

Additional observations from a re-analysis of the deposited data

Results flagged for a closer look

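The direct test of the difference in efficiency between 2 h and 7 h of KCl, by edgeR, passed for 10 of the named genes. On the log2 scale the difference (2 h minus 7 h) was 2.69 for Sirt4, 2.48 for Ccdc163, 2.24 for Ap5b1 and 1.07 for Kifc5b among the raised genes. Among the lowered genes it was -4.66 for Ccni, -2.04 for Mapk6, -1.58 for Slc20a1, -1.40 for Ereg, -1.35 for Mast2 and -1.22 for Gfod1.

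The direct test of KCl against H2O2 at 2 h also passed for 10. The difference (KCl minus H2O2) was 2.12 for Ap5b1 and 1.04 for Rsrp1. It was -5.51 for Ccni, -3.71 for Ppp1r16a, -2.99 for Adgrl1, -2.99 for Atxn1l, -2.95 for Mapk6, -2.92 for Mfhas1, -2.29 for Gfod1 and -2.0 for Mast2. These genes were named for their change at 2 h of KCl, whose libraries enter both differences.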

How the results depend on the processing

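Efficiency was called in 1349 genes, against totals of 730 with limma voom and 2036 with DESeq2, and a minimum log2 change of 1 gave 757; leaving out 1 library gave 747 to 1288. For footprints (734 genes) the fit of only the libraries compared gave 486, and leaving out 1 library 239 to 430. For RNA (7263) a minimum log2 change of 1 gave 1678, and leaving out 1 library 6017 to 7177. For 2 h against 7 h (717), limma voom gave 273, DESeq2 1378, only the libraries compared 475, a minimum change of 1 gave 379, and leaving out 1 library 240 to 785. For KCl against H2O2 (535) the same settings gave 228, 1227, 89 and 293, and leaving out 1 library 208 to 758. For efficiency the fit of only the libraries compared gave 957. The cause of these shifts was not tested. Where a fit left a group with 1 library, that library was assumed to vary like the others. Tasor2 had -0.73 after its rows were summed and 9.17 with rows as deposited, a reversal made by the split of its counts between 2 symbols. With the replicate number as a block, efficiency calls numbered 1461, footprints 718, RNA 7409, and the 2 differences 798 and 747. The number pairs samples only by name: deviations of same-numbered libraries correlated at 0.379 between the 2 footprint groups, 0.122 between the RNA groups and -0.0515 to 0.0786 between footprints and RNA. Of the 30 named genes 18 were called under each alternative that gave a value, and 0 reversed. Precision is limited where footprints are few, as in Ccni and Ppp1r16a, with 1 KCl count each.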
